A study of Mus musculus with 6 samples.

Results

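The 6 arrays of a series on the mouse myeloid line 32D carry a replicate number in their titles, and the 2 arrays numbered 3 are described here against the 4 arrays numbered 1 and 2. Each number holds 1 array of each arm: cells with the empty vector (construct label A1-EV) and cells that express miR-9 and miR-9* (construct label C2-MiR-9), the pair of strands cut from a single microRNA hairpin. All 6 samples, controls included, are 32D cells kept in RPMI with 10% fetal calf serum, antibiotics and 10 ng/ml murine interleukin-3 (IL-3), the cytokine this line depends on. The labels call the replicates independent and say neither how the cultures of a number were handled together nor whether each arm is a clone. The arrays measure messenger RNA, and mature miR-9 was not measured on them.

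The contrast and the genes in it were chosen by the same signals that are described here, since number 3 was already known to differ. Its differences are therefore given as a description, without a test. They are differences in log2(signal + 16), where the signal is the deposited intensity of a probe set, and they understate the change of dim genes. A gene was counted as higher or lower in number 3 where the difference from the mean of numbers 1 and 2 was at least 1 (a fold of 2) in the same direction in both arms and number 3 lay outside both other values in both arms. Of 18193 genes with at least 1 probe set of a single symbol, 10208 were bright enough to be examined. Each SE given with a mean difference is the moderated SE of limma from a fit of arm and number 3. It borrows from the spread of other genes. It also treats the 2 arrays of number 3 as independent, although same-numbered arrays were taken as pairs, so it can be too small.

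Immediate early genes are transcribed within minutes of a growth factor, cytokine or stress signal from factors that are already present in the cell, and their messages decay quickly. Many encode transcription factors of the AP-1 (FOS, JUN) and EGR families, and others encode the proteins that end the response, such as the messenger RNA destabiliser ZFP36 and the phosphatase DUSP1. In myeloid cells, cytokine receptors signal through JAK kinases to STAT factors, which switch on SOCS proteins as feedback inhibitors of the same receptors.

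In number 3, 26 genes were higher (0.255% of all genes examined) and 22 lower (0.216%). The higher group was led by the immediate early genes Fos, Zfp36, Egr2, Junb, Btg2 and Egr1 and by the cytokine-response genes Socs3 and Osm, in both arms. The lower group was led by Txnip, an inhibitor of thioredoxin and of glucose uptake, the membrane protein gene Tmem176b and Vwf, the von Willebrand factor of megakaryocytes and endothelium. At a difference of at least 2 on the log2(signal + 16) scale in both arms, 10 genes were higher and 0 lower. Both arrays of number 3 lay beyond all 4 other arrays in 25 of 26 genes that were higher and in 21 of 22 that were lower, the exceptions being Serpinb1a and Vwf. The rule already asked for this within each arm, so these counts follow in large part from the choice of genes. The share over all genes was not counted. With the arrays centred on their medians the counts were 31 higher and 16 lower, and after quantile normalization 31 and 19. All 26 higher genes were among the 31 under either scaling, whereas 16 of the 22 lower genes were found again after centring and 17 after quantile normalization.

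**Figure D1:**
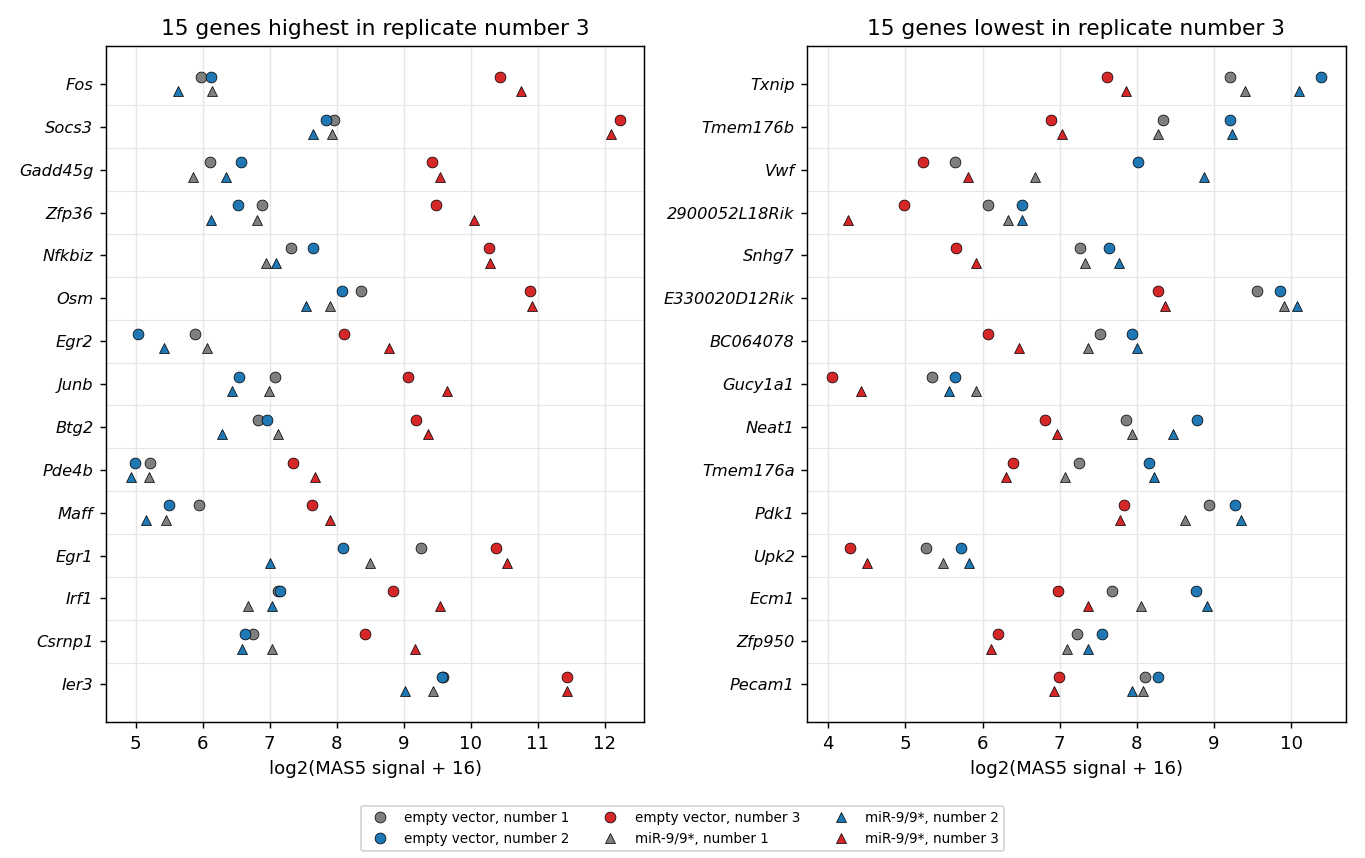
Log2(signal + 16) on each of the 6 arrays for the 15 genes with the largest mean difference in each direction; circles are empty vector, triangles miR-9/9*, and red marks number 3. For Fos both red points lie above 10 and the other 4 points lie near 6, while for Txnip the red points lie to the left of all others.

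The arrays of number 3 also differed from the rest in global measures. Their median signals, 12.0 and 12.9, were the lowest of their arms, against 14.0 to 15.2 on the other 4 arrays. The ratio of the 3' to the 5' Gapdh probe set, a measure of RNA and cDNA integrity, was 0.739 and 0.760 in number 3 and 0.832 to 0.889 elsewhere, whereas the actin ratio (1.24 and 1.29) lay within the range of the others (1.19 to 1.35). The spiked bacterial poly-A controls were dimmest in number 3 of each arm (80.0 and 68.8, geometric mean signal), but the larger gap was to number 1 (164 and 154, against 94.5 and 86.2 in number 2). The part of these differences in the results below was not tested. Of the markers of 32D cells, Csf2rb, the beta chain shared by the IL-3 receptor, had signals of 974 to 2736, whereas Kit and the primary granule protease gene Elane were below the limit on dim probe sets.

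Among the AP-1 and EGR genes, Fos, Junb, Egr2 and Egr1 were higher by the rule. Fos, which encodes a subunit of AP-1, had signals of 47.2, 53.5 and 1378 in empty vector numbers 1, 2 and 3, and of 54.2, 33.5 and 1719 in the miR-9/9* arrays. Fos was thus weak on 4 arrays, though above their median signals of 14.0 to 15.2, and bright on both arrays of number 3. Its mean difference was 4.64 (SE 0.17, 2 arrays against 4). As ratios of signals its differences were 27.4 in the empty vector arm and 39.2 in the miR-9/9* arm. Junb, the AP-1 subunit that restrains c-JUN, had 119, 77.3 and 521 in the empty vector arm and 111, 71.0 and 783 in the miR-9/9* arm, a mean difference of 2.59 (SE 0.22). Egr2, a zinc finger factor with roles in macrophage differentiation, had 43.0, 16.8 and 262, and 50.8, 26.8 and 424, a mean difference of 2.85 (SE 0.26). Egr1, its relative and a factor for monocyte differentiation, had 599, 257 and 1311, and 346, 113 and 1473. The groups did not overlap for Egr1, but numbers 1 and 2 also differed from each other, so its mean difference of 2.24 had an SE of 0.46.

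Other measured members of these families did not pass the rule. Jund, an AP-1 subunit that is expressed without a stimulus, was above numbers 1 and 2 in both arms by 0.87 and 1.19, just short of the rule in the empty vector arm. Fosl1 was above in both arms by 0.18 and 0.71, and Fosl2 differed by 0.05 and 1.00. Fosb was below the limit on dim probe sets, with 11.9 and 25.8 in number 3 and 3.80 to 6.66 on the other arrays. Jun was near the bottom of the scale on all arrays for both of its probe sets. Egr3 differed by -0.10 and -0.13 in number 3.

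Of the genes known to limit the early response, Zfp36 and Dusp1 were higher by the rule. Zfp36, whose protein binds AU-rich elements and speeds the decay of cytokine and immediate early messages, had 103, 76.0 and 698 in the empty vector arm and 96.4, 54.1 and 1049 in the miR-9/9* arm. Dusp1, the phosphatase that inactivates p38 and JNK, had 195, 245 and 774, and 244, 243 and 948. Neither gene had overlapping groups, and the mean differences were 3.18 (SE 0.24) and 1.82 (SE 0.11). Btg2, an antiproliferative cofactor of messenger RNA deadenylation, had 97.4, 108 and 568, and 124, 61.9 and 643. Ier2 and Ier3, small early-response proteins of which IER3 acts in apoptosis, were bright on every array: Ier3 had 750, 743 and 2762, and 676, 505 and 2750. The mean difference was 2.03 for Ier3 and 1.63 for Ier2. The phosphatase genes Dusp2 (0.41 and 0.18) and Dusp4 (-0.12 and -0.37) did not pass the rule. Dusp6, the phosphatase specific for ERK, was below numbers 1 and 2 in both arms, with 588, 777 and 352 in the empty vector arm and 385, 495 and 298 in the miR-9/9* arm.

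Of 29 immediate early genes listed, 21 were bright enough, and 9 of them were higher by the rule and 0 lower. Number 3 lay above both other numbers in both arms, by any amount, in 16 of the 21 genes, against 21.1% of all genes, and below in 3, against 29.2% of all genes. The median difference over the list was 0.95, against -0.05 over all genes. The list was drawn up with earlier results of these data known, so its count does not support its direction. The 3 below were Myc, Dusp6 and Egr3. Myc, the growth regulator that IL-3 is known to sustain, had 974, 997 and 496 in the empty vector arm and 1160, 953 and 570 in the miR-9/9* arm. Myc was thus lower in both arms by close to the limit of the rule (-0.97 and -0.87).

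**Figure D2:**
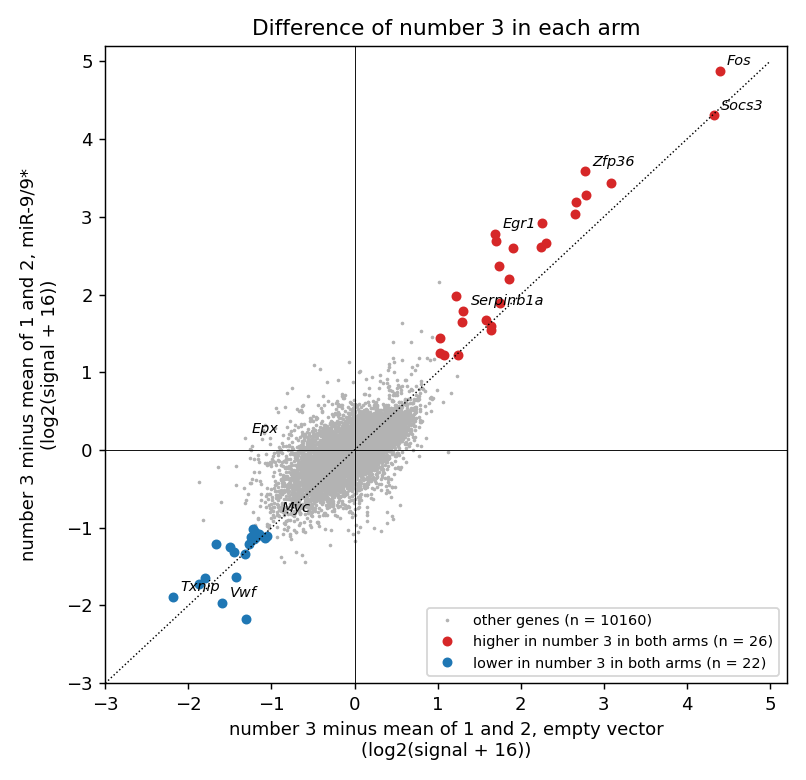
Difference of number 3 from the mean of numbers 1 and 2 for each gene, empty vector arm on the horizontal axis and miR-9/9* arm on the vertical axis, both in log2(signal + 16); red points are the 26 higher genes, blue the 22 lower genes, and the dotted line marks equal differences. Fos and Socs3 lie above 4 on both axes, and most red points lie above the dotted line.

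The cytokine-response genes Socs3 and Osm were as far apart as the AP-1 genes. Socs3, the feedback inhibitor of gp130 and G-CSF receptor signalling, had 234, 214 and 4776 in the empty vector arm and 228, 185 and 4376 in the miR-9/9* arm. Its 4.32 and 4.31 were almost the same in the 2 arms, and its other 2 probe sets gave 3.84 to 4.30. Osm, which encodes the gp130 cytokine oncostatin M and is a known STAT5 target, had 313, 255 and 1875, and 222, 171 and 1917, a mean difference of 2.93 (SE 0.16). Irf1, a transcription factor of the interferon response, had 123, 126 and 443, and 86.7, 115 and 733. Nfkbiz, the nuclear IkB protein that steers NF-kB at secondary response genes, had 144, 185 and 1224, and 107, 120 and 1240. In all 4 genes numbers 1 and 2 lay close together relative to the distance of number 3.

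Other genes of the IL-3 and STAT5 pathway did not pass the rule beside Socs3 and Osm. Of 26 such genes examined, these 2 were higher by the rule and 0 lower, and number 3 was above in 5 (19.2%, against 21.1% of all genes) and below in 9 (34.6%, against 29.2%). Cish, the classical STAT5 target and receptor inhibitor, had 866, 918 and 976 in the empty vector arm and 1024, 834 and 1237 in the miR-9/9* arm. Pim1, a survival kinase gene downstream of STAT5, had 1789, 2206 and 1710, and 2242, 2192 and 1800. Cish and Pim1 thus differed by less than 1 in both arms (0.13 and 0.41 for Cish, -0.21 and -0.30 for Pim1). The survival gene Mcl1 was higher by 0.80 and 0.85. The messages for STAT5A and STAT5B, Stat5a and Stat5b, were below numbers 1 and 2 in both arms, by between -0.35 and -0.63. Jak3, the kinase of the common gamma chain, counted as lower, with 69.9, 93.7 and 30.9, and 69.8, 81.7 and 26.5. None of the 14 listed NF-kB and inflammatory genes, which do not include Nfkbiz, passed the rule in either direction. By any amount, 3 of them were above (21.4%, against 21.1% of all genes) and 2 below (14.3%, against 29.2%). These shares depended on the scaling. After quantile normalization 6 were above (42.9%, against 25.4% of all genes) and 2 below (14.3%, against 22.1%). Irf1 alone passed the rule among 18 interferon response genes.

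Promoter stretches of the early-response genes Fos, Socs3, Zfp36, Irf1 and Dusp1 are printed. They show where exact matches to 4 response-element patterns do and do not occur. They are the 250 bases before the transcription start in RefSeq (build GRCm38.p6), 5' to 3' on the strand of the gene, chosen after the motif search. Capitals mark a match to TTCNNNGAA (the STAT pattern), the CArG box (the serum response factor site), TGACGTCA (the cyclic AMP response element) or CACGTG (the E-box of MYC and USF). All 4 patterns read the same on both strands and were searched in windows from 250 bases before to 50 after each start. The stretches are Fos chr12:85473640-85473889 (plus strand), Socs3 chr11:117969367-117969616 (minus strand), Zfp36 chr7:28379229-28379478 (minus strand), Irf1 chr11:53769764-53770013 (plus strand), for which the window of 2 with a match is shown, and Dusp1 chr17:26508473-26508722 (minus strand).
Fos: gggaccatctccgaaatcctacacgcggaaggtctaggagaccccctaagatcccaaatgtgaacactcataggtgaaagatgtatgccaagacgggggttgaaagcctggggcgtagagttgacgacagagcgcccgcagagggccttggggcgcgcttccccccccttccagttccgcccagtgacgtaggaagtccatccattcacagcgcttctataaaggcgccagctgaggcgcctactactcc
Socs3: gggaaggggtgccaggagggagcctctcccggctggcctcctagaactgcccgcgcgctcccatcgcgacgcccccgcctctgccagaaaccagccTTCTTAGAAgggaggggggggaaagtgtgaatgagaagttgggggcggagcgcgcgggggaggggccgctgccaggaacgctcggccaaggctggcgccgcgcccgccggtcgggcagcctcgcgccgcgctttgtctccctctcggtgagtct
Zfp36: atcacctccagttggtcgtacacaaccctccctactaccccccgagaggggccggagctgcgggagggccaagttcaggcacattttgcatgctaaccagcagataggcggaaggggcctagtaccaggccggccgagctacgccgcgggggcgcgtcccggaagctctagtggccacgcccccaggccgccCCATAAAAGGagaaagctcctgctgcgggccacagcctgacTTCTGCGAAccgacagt
Irf1: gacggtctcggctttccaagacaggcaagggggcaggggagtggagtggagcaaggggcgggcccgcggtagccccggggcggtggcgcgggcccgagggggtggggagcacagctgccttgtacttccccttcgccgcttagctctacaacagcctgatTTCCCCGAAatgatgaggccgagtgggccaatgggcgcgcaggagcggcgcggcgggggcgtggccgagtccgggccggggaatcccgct
Dusp1: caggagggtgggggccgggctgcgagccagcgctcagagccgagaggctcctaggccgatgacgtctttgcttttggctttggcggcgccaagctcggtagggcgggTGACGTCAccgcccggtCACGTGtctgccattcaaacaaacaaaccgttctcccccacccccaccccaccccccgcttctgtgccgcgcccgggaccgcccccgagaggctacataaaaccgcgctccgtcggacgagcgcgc
The STAT pattern starts 154 bases before the start of Socs3, 90 before that of Irf1 and 17 before that of Zfp36, which also holds a CArG box from 58 to 49 bases upstream. The Dusp1 stretch holds TGACGTCA from 143 to 136 bases upstream and CACGTG from 126 to 121. None of the 4 exact patterns is in the Fos stretch. Inexact sites and sites farther than 250 bases upstream were not searched, so this does not show that Fos lacks such elements.

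RefSeq windows were available for 20 genes that were higher and 17 that were lower. TTCNNNGAA occurred in 6 of the 20 higher genes (30.0%: Csrnp1, Irf1, Maff, Pde4b, Socs3 and Zfp36) and in 0 of the 17 lower genes, against 8.32% of the examined genes with a window and 9.55% of all genes with a window. TGACGTCA occurred in 3 of the 20 (Btg2, Dusp1 and Maff) and 0 of the 17, against 3.79% of the examined genes. The CArG box occurred in 2 of the 20 (Egr2 and Zfp36) and 1 of the 17, against 1.47%, and CACGTG in 5 and 1, against 12.0%. These matches are a description of the letters and were not tested, and a gene with several windows has more chances of a match.

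Of the growth-arrest genes of the Gadd45 family, Gadd45g and Gadd45b were higher by the rule, and Gadd45a was not (0.38 and 0.36). Gadd45g, a stress sensor that activates p38 and JNK and is induced by cytokines, had 53.2, 78.7 and 672 in the empty vector arm and 42.0, 65.4 and 729 in the miR-9/9* arm, the third largest mean difference (3.26, SE 0.18). Gadd45b had 56.5, 55.2 and 160, and 47.9, 72.9 and 221. Cdkn2d, the CDK4 and CDK6 inhibitor p19INK4D, had 286, 319 and 653, and 323, 321 and 775. These were the 3 genes that were higher by the rule among 19 cell cycle inhibitors and p53 targets, of which 0 were lower. Number 3 was above in 7 of the 19 (36.8%, against 21.1% of all genes) and below in 6 (31.6%, against 29.2%). Cdkn1b, the inhibitor p27, was below in both arms (-0.52 and -0.75).

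The remaining higher genes have mixed roles. Pde4b, a phosphodiesterase that breaks down cyclic AMP, had 21.3, 15.9 and 148, and 20.9, 14.4 and 189. Both further probe sets of Pde4b above the limit on dim probe sets differed by less, 0.05 and 0.51 for one and 0.49 and 0.61 for the other, and the mean over its probe sets was 1.09 in place of 2.43. Maff, a small MAF factor, and Csrnp1, a nuclear protein of the early response, had mean differences of 2.26 and 2.05. The small GTPase gene Rhob, the histone gene H3c7 and the unnamed transcript 9030607L20Rik were each higher by between 1.23 and 1.99 in each arm. Zfand5, Gcc1 and Tnfsf14, which encodes the TNF family ligand LIGHT, lay between 1.02 and 1.44. Serpinb1a, the inhibitor of neutrophil serine proteases, had 2332, 1027 and 3862 in the empty vector arm and 818, 407 and 2040 in the miR-9/9* arm. Number 3 of Serpinb1a was highest within each arm, but its miR-9/9* value lay below that of empty vector number 1.

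The lower genes had smaller differences on the log2(signal + 16) scale, and none reached -2 in both arms. Txnip, which is induced by glucose, had 576, 1322 and 180 in the empty vector arm and 660, 1079 and 217 in the miR-9/9* arm, a mean difference of -2.04 (SE 0.31). As ratios of signals these are 0.189 and 0.249. Pdk1, the kinase that shuts pyruvate out of the mitochondrion and a HIF1 target, had 472, 603 and 211, and 379, 635 and 203. In both genes number 3 was lowest and number 2 highest in the empty vector and miR-9/9* arms alike. Pdk1 was the only lower gene by the rule among 29 glycolysis and hypoxia genes, of which 0 were higher and number 3 was above in 5 (17.2%, against 21.1% of all genes) and below in 11 (37.9%, against 29.2%). The mitophagy gene Bnip3, another HIF1 target, came close, with -1.02 and -0.80. Among the glycolytic enzymes, Aldoa, Tpi1, Pgk1 and Ldha lay between -0.16 and 0.31, whereas Pfkl (-0.64 and -0.42), Pfkp (-0.21 and -0.26) and Pkm (-0.21 and -0.06) were below in both arms.

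The neighbouring genes Tmem176a and Tmem176b, which encode related membrane proteins of myeloid and dendritic cells, were lower together. Tmem176b had 307, 572 and 103 in the empty vector arm and 295, 584 and 114 in the miR-9/9* arm, and Tmem176a had 137, 271 and 68.2, and 118, 283 and 63.3. Vwf had 33.9, 242 and 21.6, and 86.3, 452 and 40.1. Vwf was bright in number 2 alone, and the gap from number 3 to number 1 was small, so its mean difference of -1.78 had an SE of 0.71. Pecam1, an adhesion receptor of leukocytes and platelets, had 259, 295 and 111, and 256, 229 and 106, with numbers 1 and 2 close together. Vwf was the only lower gene by the rule among 11 megakaryocyte genes, of which 6 were below (54.5%, against 29.2% of all genes) and 1 above (9.09%, against 21.1%) by any amount. Of the others, Itga2b, the integrin chain of the fibrinogen receptor, had -0.59 and -0.54, and Gp9 had -0.56 and -0.58.

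The lower genes also held the noncoding transcripts Neat1 and Snhg7. Neat1, the RNA scaffold of nuclear paraspeckles, had 217, 422 and 96.6 in the empty vector arm and 228, 339 and 109 in the miR-9/9* arm. A second, dimmer probe set of Neat1 did not follow it, with -0.49 and 0.07. Snhg7, a host transcript of small nucleolar RNAs, had 137, 184 and 34.3, and 145, 202 and 44.2. E330020D12Rik, BC064078, 2900052L18Rik, AA386476 and Mirt1 were lower by between -1.06 and -2.17 in each arm. Cirbp, the cold-inducible RNA-binding protein, had 238, 572 and 158, and 252, 592 and 173. The other lower genes were Gucy1a1, Upk2, Ecm1, the zinc finger genes Zfp950 and Zfp229, the formin gene Inf2 and the primary granule protease gene Prtn3, with mean differences of -1.38 to -1.11. Gucy1a1 and Upk2 were at or below 6.74 in number 3, and 2900052L18Rik was at 3.05 in the miR-9/9* arm, in the range where signals are not reliable, so their size is uncertain. With a pseudocount of 1 the mean difference of 2900052L18Rik went from -1.74 to -3.02. Probe sets with several symbols or none gave 4 higher and 27 lower among 3622, and 1 of the higher ones reads the leukocyte receptor pair Lilrb4a and Lilr4b. Lower ones thus outnumbered higher ones there, unlike among the 10208 genes, where 26 were higher (0.255%) and 22 lower (0.216%). The balance of the higher and lower groups therefore holds only for genes with a symbol of their own.

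The rule has a sharp edge. Just inside it were Prtn3, with 1.02 as the smaller of its 2 absolute differences, Tnfsf14 (1.02) and Gcc1 (1.03). Just outside were Pisd-ps3 (0.999), A930033H14Rik (0.976) and Anxa1 (0.963). Of 27 further probe sets of the 48 genes above the limit on dim probe sets, 25 had the same sign in both arms. The exceptions were those of Neat1 and Zfand5. Several of the 25 fell short of the rule in both arms, among them ones of Gadd45b, Gucy1a1, Zfp950 and Zfand5. With the mean of a gene's probe sets above that limit, 24 genes were higher, 23 of them from the 26. There were then 19 lower genes, 18 of them from the 22.

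Broad gene groups differed by less than the rule asks, and these small shifts depended on the scaling. Without further scaling, number 3 lay above in 21.1% of all genes. It did so in 25 of 31 oxidative phosphorylation genes, 16 of 26 ribosomal protein genes and 13 of 15 heat shock and chaperone genes. It also did so in 22 of 31 G2/M genes and 19 of 31 G1/S genes. The same direction was found for bright genes in general: in the brightest decile of all genes number 3 was above in 52.9%, with a median difference of 0.17, against 0.005 and 26.5% after quantile normalization. After that normalization 25.4% of all genes lay above and 22.1% below. The ribosomal genes then had 4 above and 6 below and their median went from 0.21 to -0.02. The oxidative phosphorylation genes had 11 above and 1 below, with a median of 0.09 in place of 0.26. The G2/M genes had 18 above and 2 below, with a median of 0.18, and the heat shock genes 8 above and 0 below, with 0.24. The cochaperone genes Hsph1 and Dnajb1 had the largest differences there, at 0.91 and 0.67, and 0.47 and 1.00. The immediate early list had 17 above and 2 below after quantile normalization and after centring on the medians alike. Centring moved the median over all genes from -0.05 to 0.05 and the shares of all genes above and below from 21.1% and 29.2% to 31.2% and 18.4%. Both scalings of the lists were added after their values were seen.

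**Figure D3:**
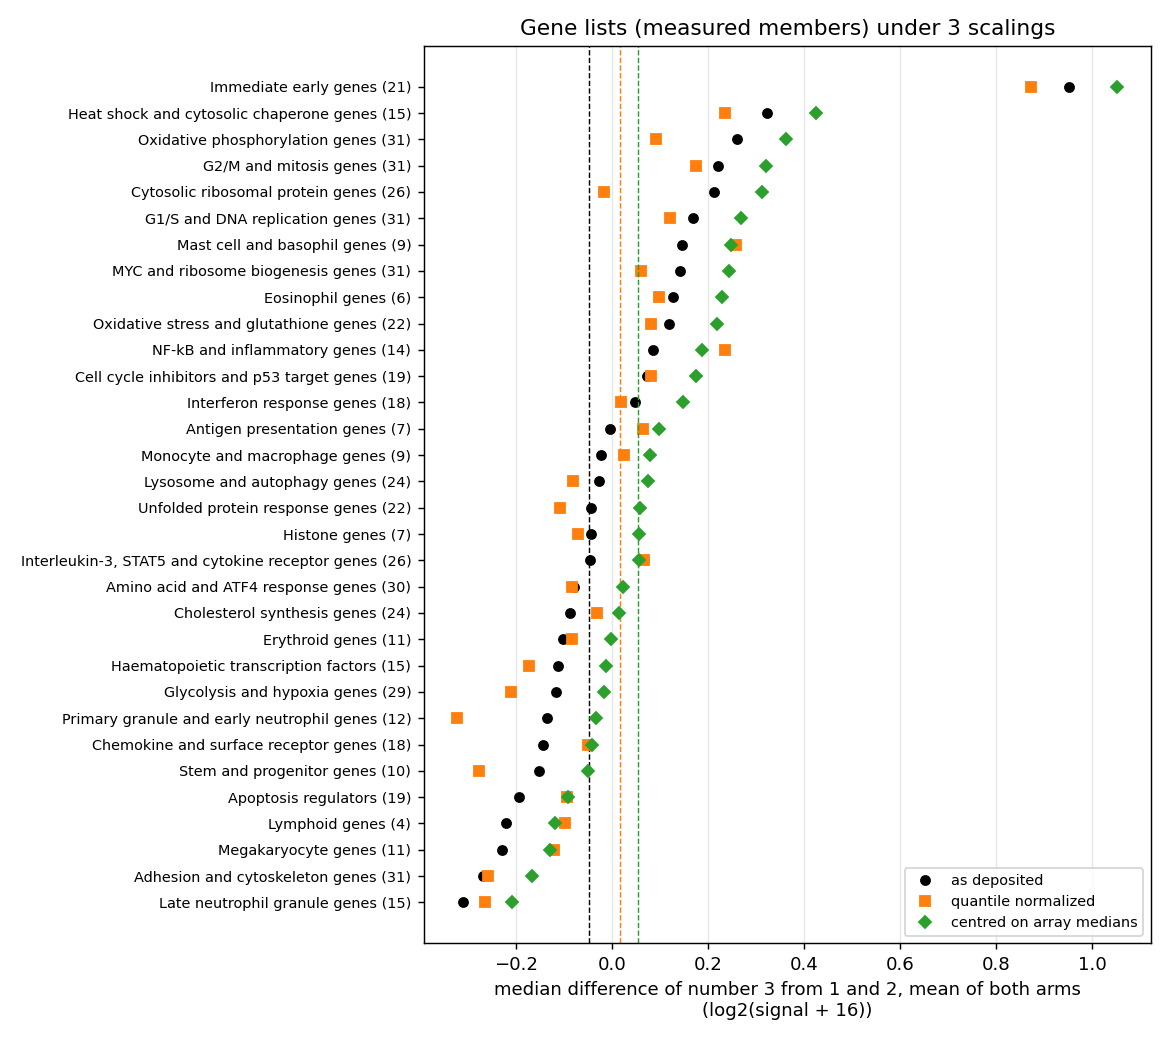
Median difference of number 3 from numbers 1 and 2, averaged over both arms, in log2(signal + 16), for each gene list with its number of examined genes; black circles are deposited values, orange squares quantile-normalized, green diamonds median-centred, and the dashed lines give the medians over all genes. The immediate early list lies at 0.87 to 1.05 under the 3 scalings, and the ribosomal list goes from 0.21 to -0.02 after quantile normalization.

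Few markers of other blood lineages differed by as much as the rule asks by deposited values, and then in 1 arm only. By deposited values, none of the 15 late neutrophil, 6 eosinophil, 9 mast cell and basophil, 11 erythroid, 9 monocyte and macrophage or 4 lymphoid genes examined passed the rule in either direction, and after quantile normalization 1 late neutrophil gene was lower. The summed signal of the monocyte and macrophage genes was 1079 and 1509 in number 3 and 994 to 1304 elsewhere. That of the lymphoid genes was lower on both arrays of number 3, 183 and 197 against 271 to 335. Of the 4 lymphoid genes, only Nkg7, also listed as a primary granule gene, lay below both other numbers in both arms (-0.94 and -0.58). Igll1 had 0.15 and -0.91, Vpreb1 0.47 and 0.18, and Cd8a -0.12 and -0.01. Number 3 was below both other numbers in 6 of the 15 late neutrophil genes (40%, against 29.2% of all genes) and above in 0 (against 21.1%). The part of these markers in the other results was not tested. For the eosinophil genes the sums were 4421 and 4313, within the 2219 to 7208 of the other arrays. The mast cell and basophil genes had a median of -0.11 in the empty vector arm and 0.30 in the miR-9/9* arm. Of these, Fcer1a had -0.49 and 1.09, whereas Srgn was above in both arms (0.47 and 0.25). The monocyte gene Cd14 was above in both arms, by 0.80 and 1.53, short of the rule in the empty vector arm. Adhesion and cytoskeleton genes lay below in 15 of 31 (48.4%, against 29.2% of all genes), with a median of -0.27. After quantile normalization they lay below in 16 of 31 (51.6%, against 22.1% of all genes).

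Whether number 3 differed to an unlike extent in the 2 arms was tested as an interaction, which the choice of the contrast did not use. By limma with Benjamini-Hochberg adjustment, 0 of 10208 genes were called (0%), with 207 genes (2.03%) at an unadjusted p under 0.05 and a smallest adjusted p of 1.00. With the replicate number as a block 0 genes were again called, with 835 at an unadjusted p under 0.05, and the smallest adjusted p was 0.130, for Egr1 among others. Egr1 was 1.70 higher in the empty vector arm and 2.78 in the miR-9/9* arm. The difference was larger in the miR-9/9* arm for 22 of the 26 higher genes, among them Zfp36 (2.77 and 3.58) and Irf1 (1.70 and 2.69), and for 6 of the 22 lower genes. Over all genes the SD of the differences was 0.361 in the empty vector arm and 0.326 in the miR-9/9* arm. The medians over all genes were -0.062 and -0.028. The share of all genes with a larger difference in the miR-9/9* arm was not counted. Each arm has 1 array of number 3, so the counts of 22 and 6 rest on single arrays. In the fit without the block, the 4 smallest unadjusted p belonged to Crlf2, the receptor of the cytokine TSLP, at -0.68 and 0.13, and to Med25, Tgoln1 and Lefty1, none of which is among the 48 genes. Only 2 residual degrees of freedom stand behind the fit without the block, and fewer behind the fit with it.

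Taken arm by arm, 30 genes were higher in the empty vector arm and 49 in the miR-9/9* arm, and the 26 shared genes are 86.7% and 53.1% of these. For lower genes the arms had 88 and 49, of which the 22 shared genes are 25.0% and 44.9%. No gene was beyond the limit in opposite directions in the 2 arms. Across the 10208 genes the differences in the arms had a Pearson correlation of 0.680 and a Spearman correlation of 0.636. Genes are not replicates, and the arrays of an arm share their scaling, so these are given as a description. The root mean square difference between same-numbered arrays of different arms was 0.268 to 0.276, less than the 0.298 to 0.424 between arrays of different number within an arm. In the empty vector arm it was 0.298 between numbers 1 and 2, 0.364 between 1 and 3 and 0.424 between 2 and 3. The miR-9/9* arm had 0.326, 0.329 and 0.400. By this measure number 3 was farther from number 2 than from number 1 in both arms.

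Of the 48 genes, 3 also differed between the arms, a share not below that of all genes. With the number as a block, limma called 302 of all genes (2.96%, both directions together) and 3 of the 48. Serpinb1a was lower in miR-9/9* cells by a log2 difference of -1.24 (adjusted p = 0.000762), and Vwf and Zfp229 were higher by 0.82 (adjusted p = 0.00777) and 0.40 (adjusted p = 0.0468). Each kept the same sign in all 3 pairs. Without the block, none of the 48 was called by limma, and 0 of them had an unadjusted p under 0.05. For Fos and Socs3 the arm differences were -0.01 and -0.12.

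Numbers 1 and 2 were not alike either, which sets the scale for number 3. In a limma fit of arm and number, 174 genes were higher in number 2 than in number 1 (1.7%) and 224 lower (2.19%), of which 73 differed by at least 2-fold. None of the 26 early-response and other higher genes was called higher in number 2, and 3 were called lower: Egr1 (-1.33, adjusted p = 0.0159), Egr2 (-0.74, adjusted p = 0.0283) and Serpinb1a (-1.07, adjusted p = 0.00389). Of the 22 lower genes, 10 were called higher in number 2, among them Vwf (2.28, adjusted p = 0.000163), Cirbp (1.20, adjusted p = 0.00028), Txnip (0.94, adjusted p = 0.00624) and Tmem176b (0.91, adjusted p = 0.00219). Both comparisons use the arrays of numbers 1 and 2. When number 2 was left out of both arms, 29 genes were higher, 24 of them from the 26, whereas 19 were lower, with 7 from the 22. The lower group therefore rests in large part on number 2, and the higher group does not.

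The genes with the largest differences between numbers 1 and 2 included those of granule proteins and calprotectin, and in these number 3 mostly lay between. Epx, eosinophil peroxidase, had 1055, 104 and 127 in the empty vector arm and 2270, 54.4 and 430 in the miR-9/9* arm, a difference of number 2 from number 1 of -4.09 (adjusted p = 0.0025). Ngp, neutrophilic granule protein, had 2511, 527 and 811, and 2054, 129 and 727. The calprotectin gene S100a8 had 696, 94.2 and 164, and 244, 10.3 and 106, and S100a9 followed it. For these 4 genes number 1 was highest and number 2 lowest in both arms. Mpo, myeloperoxidase of the primary granule, had 345, 132 and 60.0, and 1629, 126 and 288, so that number 3 was lowest in the empty vector arm and between the others in the miR-9/9* arm. Slc39a8, a zinc importer, and Csf2rb were lower in number 2 by -2.69 (adjusted p = 0.000163) and -1.09 (adjusted p = 0.000621). Higher in number 2 were Tfec, a MiT family transcription factor (1.96, adjusted p = 0.00396), the stress factor Ddit3 (1.52, adjusted p = 0.00261), Gimap3 (1.34, adjusted p = 0.0109) and the survival kinase Pim2 (1.31, adjusted p = 0.00278).

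**Figure D4:**
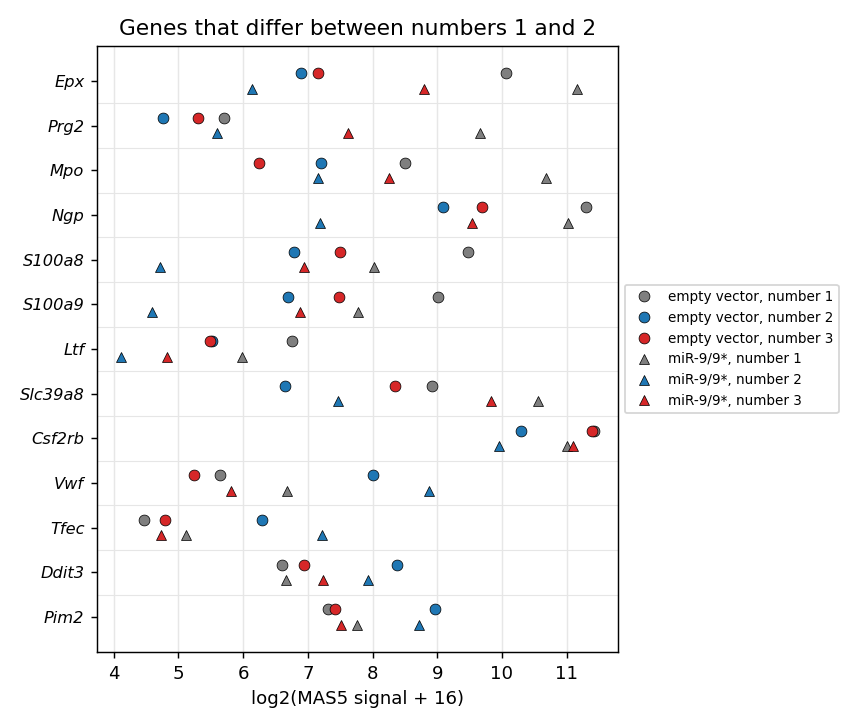
Log2(signal + 16) on each array for genes that differed between numbers 1 and 2; circles are empty vector, triangles miR-9/9*, grey number 1, blue number 2 and red number 3. For Epx, Ngp, S100a8 and S100a9 the red points lie between the grey and the blue points of the same arm, and for Tfec, Ddit3 and Pim2 blue is highest.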

How the data were processed

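Per the labels' protocols, total RNA was extracted with Trizol and labelled as biotinylated cRNA by the Affymetrix protocol, with 1 colour per array. The deposited values are signal intensities on a linear scale, made by the authors with MAS5 (version not stated), per the submitters' processing notes. Groups and replicate numbers came from the titles. Across genes, the deviations of the empty vector and miR-9/9* arrays of a number from the mean of their arm had correlations of 0.491, 0.616 and 0.680, so the numbers were taken to pair the arrays, from the data alone.

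Of 45101 probe sets, 34958 carry 1 symbol in a 2016 platform annotation. Each gene was represented by its brightest such probe set, and genes with a mean log2(signal + 16) below 4.86, the median over probe sets, were left out. Tests were two-sided, by limma's moderated test with a variance trend (limma 3.58.1, run under R 4.3.3), with Benjamini-Hochberg adjustment over all 10208 genes and a threshold of 0.05. P-values measure the spread between these samples, which may be technical, and 6 arrays limit the precision. The computations were tested on simulated data.

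Members and lists were chosen with earlier results of these data known. Named genes are the 15 largest differences in each direction, up to 4 differing members of each of 32 lists (or the 2 brightest), the 4 smallest interaction p-values, the 5 largest differences between numbers 1 and 2 in each direction, and a set of myeloid genes. Members named beyond this were chosen after their values were seen.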

Additional observations from a re-analysis of the deposited data

How the results depend on the processing

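The lower group moved with the pseudocount: 72 genes were lower with a pseudocount of 1 and 6 with 64, while the higher group stayed at 31 and 21. A limit of 0.5 in both arms gave 124 higher and 317 lower genes, and a limit of 2 gave 10 and 0. Without number 1 of both arms the counts were 48 and 56. Leaving out single arrays gave 28 to 49 higher genes, the most without empty vector number 3, and 12 to 92 lower genes, with 12 without empty vector number 2, 48 without empty vector number 3 and 92 without miR-9/9* number 3. Without an array of number 3 the rule reads 1 arm only.

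For number 2 against number 1, limma called 26 higher and 37 lower genes without the filter, 43 and 53 without a variance trend, and 370 and 468 without number 3 of both arms. Leaving out single arrays gave 70 to 339 higher and 92 to 436 lower genes, the fewest without a number 1 array (70 and 116 for the empty vector, 90 and 92 for miR-9/9*) and the most without a number 3 array. Without miR-9/9* number 2, 128 were lower. The interaction called 1 gene without miR-9/9* number 1 and 0 in the other fits, including the replicate block, and could not be fitted without an array of number 3. Of the 48 genes, the arm difference was called in 1 without the filter, 1 without a variance trend, 0 with no replicate block and 2 to 5 with single arrays left out, 5 without either array of number 3. Where an arm keeps 1 array of a number, that array is assumed to vary like the others. The causes were not tested. Of 685 values of 46 named genes under these alternatives, 55 moved by more than the spread. The sign changed in 38 values of 9 genes, none of them among the 30 named genes that were higher or lower by the rule. Signals under about the filter value of 12.9 carry little information on size.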
